A study of Homo sapiens with 6 samples.

Results

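The genes described here are 44 components of the machinery that copies DNA: the replicative helicase and the proteins that load and start it, the sliding clamp and its loader, DNA polymerases and primase, enzymes that finish the lagging strand, single-strand binding proteins, enzymes that make deoxynucleotides, histone chaperones of the fork, and a few S-phase regulators. They were chosen by gene name, and each name matched 1 row of a table of 27887 rows. ASF1B has a further row in the table, a numbered copy with identical FPKM in every library, and no other of the 44 genes has one. RNA-seq had been done on KYSE450, an established line of human esophageal squamous cell carcinoma (ESCC) with the genotype given as WT, in 2 groups of 3 libraries. The mock group had received a mock virus infection. The shHMGB2 group had been infected with a virus carrying a short hairpin RNA against HMGB2. The labels give no time after infection, do not say whether the mock virus carried a hairpin, and do not tell if replicate libraries stem from separate cultures. The p-values therefore reflect library-to-library spread only, which may be technical. The libraries were collected to look for genes that act on cholesterol metabolism, and the replication genes were read from the same table.

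Cells replicate their genome once per division. During G1 the origin recognition complex, CDC6 and CDT1 load the ring-shaped MCM helicase onto DNA as a double ring, and geminin (GMNN) blocks CDT1 afterwards so that origins are not loaded again. In S phase CDC45 and the GINS complex join the MCM ring to form the active helicase, MCM10 helps to start it, and polymerases alpha, delta and epsilon copy the strands with the help of PCNA. Many of these genes are transcribed at the G1/S boundary through E2F factors, and their mRNAs are commonly used as signs of proliferating cells in tumors. HMGB2 is an abundant chromatin protein that binds and bends DNA and is itself high in dividing cells.

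Most replication genes differed little between the groups. Of the 44 genes, 41 did not pass the test, 2 fell and 1 rose. MCM10, an activator of the helicase, fell to 76.8% of its mock mean, and CDC6, a helicase loader, to 83.9%. ORC1, a subunit of the origin recognition complex, rose to 119% of its mock mean. The level in each library is given as FPKM, fragments scaled by transcript length and library total, and differences are shHMGB2 minus mock on the log2(FPKM + 1) scale, which understates changes of genes with low values.

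The test was limma, fitted to the 13409 genes whose mean reached 1 FPKM, with p-values adjusted over all of them by the Benjamini-Hochberg method and a threshold of 0.05. It called 905 genes, 6.75% of those tested. The share called was 3.3% for higher genes (442) and 3.45% for lower genes (463). All 44 replication genes passed the filter on low values, so none was left out. The 3 calls among them, 1 higher and 2 lower, are close in number to what the background shares give for a list of this size. An unadjusted p under 0.05 was reached by 12 replication genes (27.3%), 9 higher and 3 lower, against 27.9% of all genes. Among all genes these were 2257 higher and 1488 lower. The 3 values of each group did not overlap for 16 replication genes (36.4%), 13 higher and 3 lower, against 35.6% of all genes. Over the whole set of 13409 genes, 2896 were higher and 1882 lower without overlap, so a lean to higher values was also present over all genes. Whether the lean differed in size between the replication genes and all genes was not tested. The median difference was 0.06 over the replication genes, with a range from -0.35 to 0.28, and 0.04 over all genes. The difference was above 0 for 29 of the 44 genes (65.9%) and for 57% of all genes. These counts depend on the scaling between libraries. With median-of-ratios scaling 24 of the 44 genes were above 0, and the median over all genes was 0.002. In the authors' deposited fold changes the medians were -0.01 over the replication genes and -0.02 over all genes tested here. RNA came from bulk cultures, so for a gene that differs in either direction, a changed share of cells in S phase and a changed amount of mRNA per cell cannot be told apart.

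**Figure D1:**
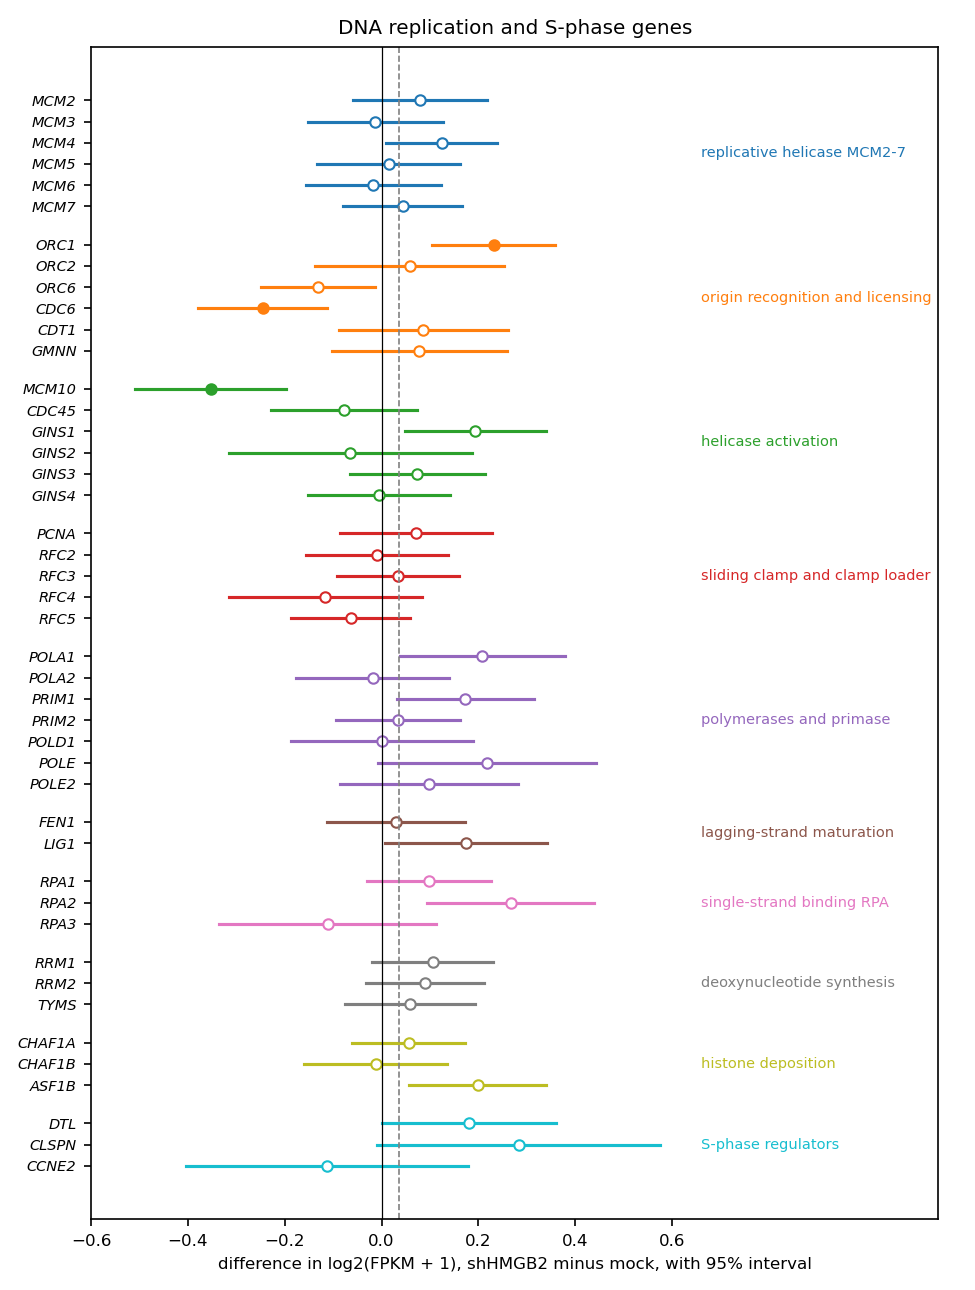
Difference in log2(FPKM + 1), shHMGB2 minus mock, for each of the 44 genes, with its 95% interval from limma, grouped and coloured by role. Filled points passed an adjusted p of 0.05, and the dashed line is the median of all genes tested (0.04). MCM10 and CDC6 lie to the left of 0 and ORC1 to the right, and most other intervals include 0.

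A p that misses the threshold does not show that a gene stayed the same, so the intervals were read directly. The 95% interval extended a median of 0.147 to either side of the difference, with a range of 0.114 to 0.293, and the median over all genes was 0.204. For 24 of the 44 genes the whole interval lay within 0.25 of 0, which held for 22.2% of all genes. For 42 it lay within 0.5 of 0, which held for 77.1% of all genes. The median mock level was 41.7 FPKM for the replication genes and 10.2 FPKM for all genes tested. The fit lets the spread vary with level, so these shares do not show that the replication genes were steadier than genes of like level. The exceptions were MCM10 and CLSPN.

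HMGB2, the target of the hairpin, was read first because it checks the labels. Its levels were 115.8, 111.4 and 108.6 FPKM in mock and 22.1, 24.5 and 27.8 FPKM in shHMGB2. Every shHMGB2 library was far below every mock library. The mean fell from 112 ± 3.60 to 24.8 ± 2.84 FPKM (SD, n = 3), a difference of -2.14 (SE 0.084, limma adjusted p = 0.000113).

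The libraries were alike in their overall level. Summed FPKM lay between 740684 and 829437, and the replication genes held 0.317% to 0.361% of it. Depth, estimated from the smallest steps in the authors' group values and relative to shHMGB2 replicate 3, was 1.33 to 2.05 in mock and up to 2.23 in shHMGB2. The table holds no read counts per library, so the depth behind each value is known only in relative terms. On the authors' normalized read scale the mock values of the replication genes ran from 135.9 for CCNE2 to 18786 for MCM7, with a median of 2057. The median deviation of the replication genes from their 6-library mean was 0.01, -0.04 and -0.03 in the mock libraries and 0.02, 0.04 and 0.01 in the shHMGB2 libraries. All 3 shHMGB2 libraries were above all 3 mock libraries on this measure, though mock replicate 1 (0.00602) and shHMGB2 replicate 3 (0.00724) nearly met. The same median over all genes was -0.03, -0.01 and -0.01 in mock and 0.02 in each shHMGB2 library. All 10 markers of squamous epithelium were measured, with summed levels of 8141 to 8528 FPKM in mock and 7003 to 7741 FPKM in shHMGB2. KRT14, KRT6A, KRT17 and SFN fell and none rose. Their part in the results for the replication genes was not tested. Of the fibroblast markers 6 of 7 were below 1 FPKM in every library, as were all 4 endothelial markers and 4 of 6 leukocyte markers, while CD68, a macrophage marker, fell. Of 4 genes listed for HEK293, a common virus packaging line, 2 were below 1 FPKM in every library. NEFL rose, with 10.7 to 12.2 FPKM in mock and 14.3 to 15.9 FPKM in shHMGB2. ZIC2 lay at 4.97 to 5.87 FPKM across both groups and did not pass (limma adjusted p = 0.686).

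**Figure D2:**
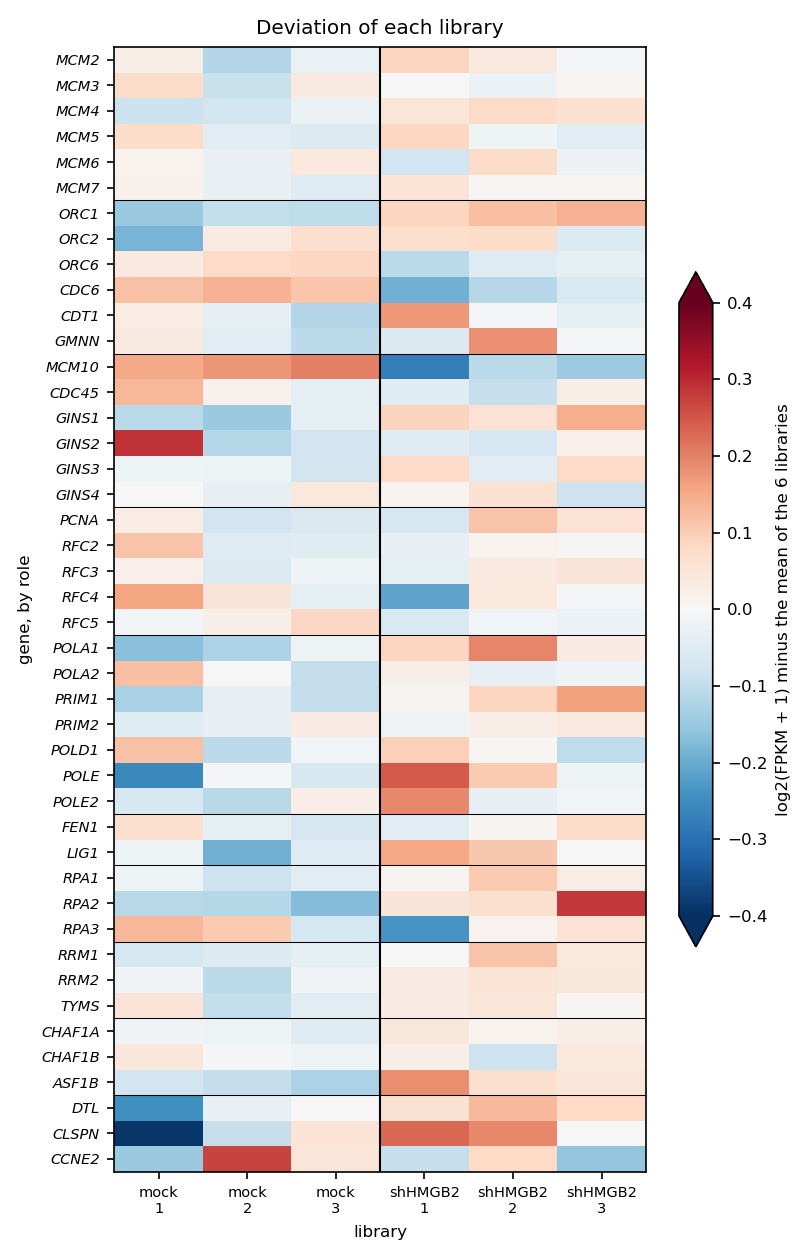
Heat map of the 44 genes (rows, in blocks by role) in the 6 libraries (columns), coloured by log2(FPKM + 1) minus the mean of the gene over the 6 libraries. The rows of CDC6, MCM10 and ORC1 change colour as a block between mock and shHMGB2, and single cells such as GINS2 in mock replicate 1 and RPA2 in shHMGB2 replicate 3 stand out within a group.

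Origin recognition and licensing held 2 of the 3 calls, in opposite directions. ORC1 is an ATP-binding subunit of the origin recognition complex, and its amount varies through the cell cycle. CDC6 is the ATPase that joins this complex to recruit the MCM ring. The promoters of the 3 called genes are shown because these genes moved and because E2F-driven transcription is what the pathway is known for. Each run covers 250 bases before to 20 bases after the start site, 5′ to 3′ on the strand of the gene, from RefSeq on GRCh38.p14. Capitals mark matches to a CCAAT box (CCAAT, or ATTGG where it lies on the other strand), to an E2F-type word (TTTCCCGC, TTTCGCGC, TTTGCCGC or TTTGGCGC) or to the related word TTTGGCGG. The windows are chr17:40287629-40287898 (plus strand) for CDC6, chr10:13161308-13161577 (plus strand) for MCM10 and chr1:52404404-52404673 (minus strand) for ORC1.
CDC6: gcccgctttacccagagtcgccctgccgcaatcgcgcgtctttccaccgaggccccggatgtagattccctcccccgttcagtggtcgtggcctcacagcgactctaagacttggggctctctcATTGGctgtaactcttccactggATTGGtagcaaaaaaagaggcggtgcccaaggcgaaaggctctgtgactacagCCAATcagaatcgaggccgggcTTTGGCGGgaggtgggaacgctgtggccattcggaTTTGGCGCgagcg
MCM10: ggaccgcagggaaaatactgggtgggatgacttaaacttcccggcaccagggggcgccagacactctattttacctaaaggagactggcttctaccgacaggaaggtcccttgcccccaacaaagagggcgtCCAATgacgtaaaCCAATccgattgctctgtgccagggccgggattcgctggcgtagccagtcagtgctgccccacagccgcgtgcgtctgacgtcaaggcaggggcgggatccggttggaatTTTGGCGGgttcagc
ORC1: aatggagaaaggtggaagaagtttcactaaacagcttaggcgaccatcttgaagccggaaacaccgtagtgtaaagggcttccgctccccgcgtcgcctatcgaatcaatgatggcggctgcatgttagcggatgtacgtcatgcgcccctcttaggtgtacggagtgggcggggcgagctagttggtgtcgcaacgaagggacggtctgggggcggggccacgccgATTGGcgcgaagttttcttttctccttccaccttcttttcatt
In the CDC6 window TTTGGCGG begins 28 bases before the start site and TTTGGCGC begins at position 8 after it, with 3 CCAAT matches further upstream. The MCM10 window has CCAAT matches that begin 118 and 105 bases before the start and a TTTGGCGG at position 6 after it. The ORC1 window holds a single match, a CCAAT box on the other strand that begins 23 bases before the start. The annotated ORC1 gene reaches further upstream than this start site. A match is a description of the letters and not of binding.

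CDC6 measured 34.1, 34.7 and 33.95 FPKM in mock and 27.3, 28.9 and 30.0 FPKM in shHMGB2. All 3 shHMGB2 libraries were below all 3 mock libraries. The mean fell from 34.2 ± 0.378 to 28.7 ± 1.36 FPKM (SD, n = 3), with a difference of -0.25 (SE 0.057, 95% interval -0.38 to -0.11, limma adjusted p = 0.0467). CDC6 lies on chromosome 17 at 40287879 to 40304657 (GRCh38). In the authors' deposited table its log2 fold change was -0.31 with an adjusted p of 0.000395. With any 1 of the 6 libraries left out, CDC6 no longer passed in limma (adjusted p from 0.0632 to 0.147, difference from -0.28 to -0.21).

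ORC1 measured 15.3, 15.9 and 15.9 FPKM in mock and 18.2, 18.6 and 18.9 FPKM in shHMGB2. The groups did not overlap, and the spread within each was small. The mean rose from 15.7 ± 0.320 to 18.6 ± 0.368 FPKM (SD, n = 3), with a difference of 0.23 (SE 0.055, 95% interval 0.10 to 0.36, limma adjusted p = 0.0495). ORC1 lies on chromosome 1 at 52372829 to 52409503 (GRCh38). In the authors' deposited table its log2 fold change was 0.19 and did not pass, with an adjusted p of 0.118. The call was lost in limma with any 1 library left out (adjusted p from 0.0653 to 0.163) and with median-of-ratios scaling (adjusted p = 0.0733).

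ORC6, the smallest subunit of the same complex, had the opposite sign. It measured 71.9, 73.8 and 74.1 FPKM in mock and 64.8, 67.5 and 68.1 FPKM in shHMGB2. Every shHMGB2 value was below every mock value, but the difference of -0.13 did not pass (limma adjusted p = 0.145). ORC2, a core subunit, had a difference of 0.06 with overlapping groups. CDT1, the other loading factor, had 42.6 ± 2.21 FPKM in mock and 45.3 ± 3.72 FPKM in shHMGB2 (SD, n = 3), a difference of 0.09, and its inhibitor GMNN had a difference of 0.08. Both overlapped between the groups, and so did the ratio of CDT1 to GMNN.

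Ratios within a library do not depend on the scaling between libraries. On the log2 scale the ratio of ORC1 to ORC6 was -2.23, -2.22 and -2.23 in mock and -1.83, -1.86 and -1.85 in shHMGB2, so it was tight within each group and apart by 0.38. The ratio of CDC6 to ORC1 was 1.16, 1.13 and 1.10 in mock and 0.59, 0.63 and 0.67 in shHMGB2, a difference of -0.50. CDC6 to CDT1 differed by -0.34 between the group means, and its groups were also apart. The ratio of ORC1 to ORC2 overlapped between the groups, with a difference of 0.18 (2-sided exact permutation p = 0.2). These ratios were picked after the levels of the genes had been seen, so they restate the differences of ORC1 and CDC6 and do not support them. Of 17 ratios planned from the complexes, 3 had groups that did not overlap (MCM4, GINS1 and RFC3, each to the mean of its complex), and of 5 picked after seeing the levels, 4 did not. A 2-sided exact permutation test of 3 against 3 libraries cannot go below p = 0.1, which is the value of all 7 that were apart, and after adjustment over the 22 ratios it is 0.314.

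**Figure D3:**
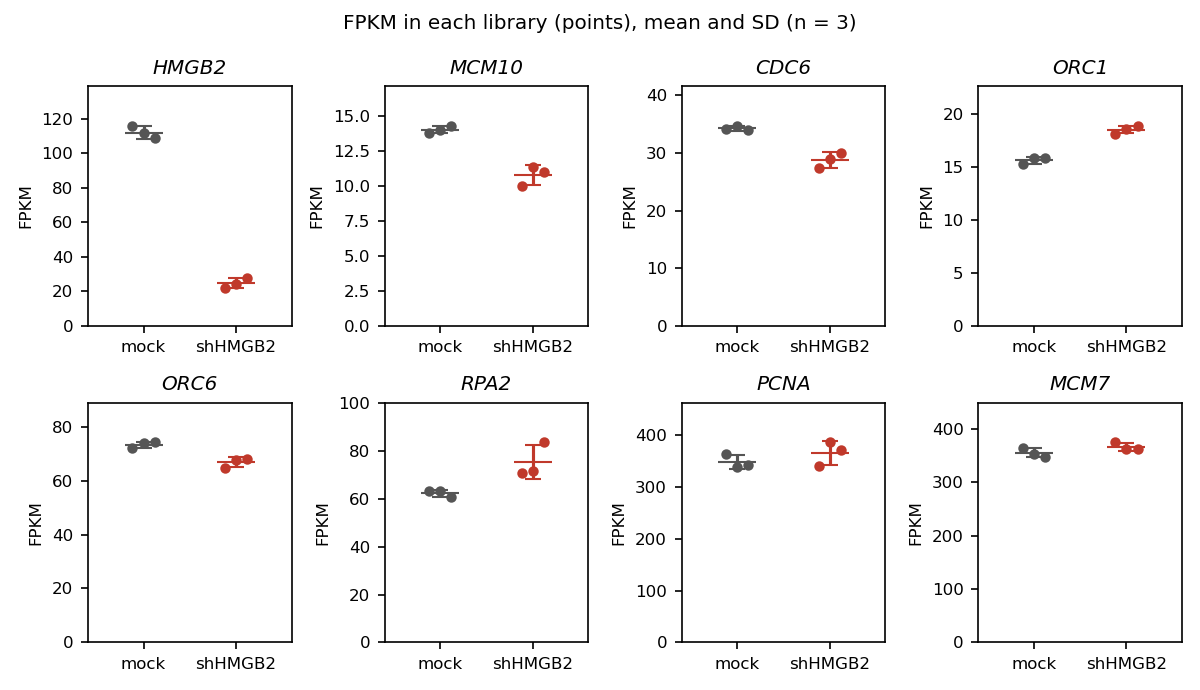
FPKM in each library (points) with the mean (long line) and SD (error bar, n = 3) for HMGB2, the 3 called genes and 4 further replication genes, each panel with its own axis from 0. HMGB2 drops to 22.1% of mock, the groups of MCM10, CDC6, ORC1, ORC6 and RPA2 do not overlap, and those of PCNA and MCM7 do.

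Helicase activation held the replication gene with the largest fall. MCM10, a scaffold that binds the MCM ring and single-stranded DNA and helps to turn the loaded ring into a moving helicase, measured 13.8, 14.0 and 14.3 FPKM in mock and 9.96, 11.3 and 11.0 FPKM in shHMGB2. The highest shHMGB2 library stayed well below the lowest mock library. The mean fell from 14.0 ± 0.25 to 10.8 ± 0.715 FPKM (SD, n = 3), with a difference of -0.35 (SE 0.067, 95% interval -0.51 to -0.20, limma adjusted p = 0.0255). MCM10 lies on chromosome 10 at 13161558 to 13211110 (GRCh38). In the authors' deposited table its log2 fold change was -0.44 with an adjusted p of 2.45e-05. In limma it passed without mock replicate 1 (adjusted p = 0.0378) and did not pass when any of the other 5 libraries was left out (adjusted p from 0.0552 to 0.097, difference from -0.39 to -0.30).

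The partners of MCM10 in helicase activation did not pass. CDC45, which joins the MCM ring in the active helicase, had 55.1 ± 3.38 FPKM in mock and 52.1 ± 2.17 FPKM in shHMGB2 (SD, n = 3), a difference of -0.08 with overlapping groups. GINS1 measured 11.3, 11.0 and 11.9 FPKM in mock and 13.1, 12.8 and 13.7 FPKM in shHMGB2. All 3 shHMGB2 values were higher, but the difference of 0.19 did not pass (limma adjusted p = 0.103). The other members of the 4-subunit GINS complex had differences of -0.06 (GINS2), 0.07 (GINS3) and -0.01 (GINS4). GINS2 had its highest value in mock replicate 1, at 64.6 FPKM against 48.6 to 53.4 FPKM in the other 5 libraries. The log2 ratio of GINS1 to the mean of the complex was higher in all 3 shHMGB2 libraries, by 0.16, and the ratio of MCM10 to CDC45 was lower in all 3, by 0.30, both with the smallest exact p of 0.1.

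The MCM helicase genes themselves gave no call. MCM2 to MCM7 encode the 6 subunits of the ring that unwinds DNA, and their differences ran from -0.02 to 0.12 with a median of 0.03. MCM4 was the largest, with 93.2, 94.1 and 97.1 FPKM in mock and 102.4, 104.5 and 103.4 FPKM in shHMGB2. Its groups did not overlap, and its difference of 0.12 did not pass (limma adjusted p = 0.153). MCM7 had 365.4, 353.8 and 348.0 FPKM in mock and 374.9, 362.3 and 362.7 FPKM in shHMGB2, overlapping groups with a difference of 0.04 (95% interval -0.08 to 0.17). The others differed by 0.08 (MCM2), -0.01 (MCM3), 0.01 (MCM5) and -0.02 (MCM6), and their groups overlapped. Against the mean of the complex the ratio of MCM4 was higher in all 3 shHMGB2 libraries, by 0.09 on the log2 scale, and the ratios of the other 5 subunits overlapped.

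The subunits of this ring, which assembles in equal numbers, did not have equal mRNA levels. MCM7 was 6.98-fold above MCM5 in mock and 7.12-fold above it in shHMGB2 in FPKM, a scale that is per length. MCM3, the next highest subunit in mock, was 3.60-fold below MCM7 there. The 4 loader subunits RFC2 to RFC5 were close to each other, with RFC3 1.2-fold above RFC5 in mock and 1.28-fold in shHMGB2. Within GINS, GINS2 was 4.76-fold above GINS1 in mock and 3.91-fold in shHMGB2. ORC6 was 4.68-fold above ORC1 in mock and 3.60-fold in shHMGB2.

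**Figure D4:**
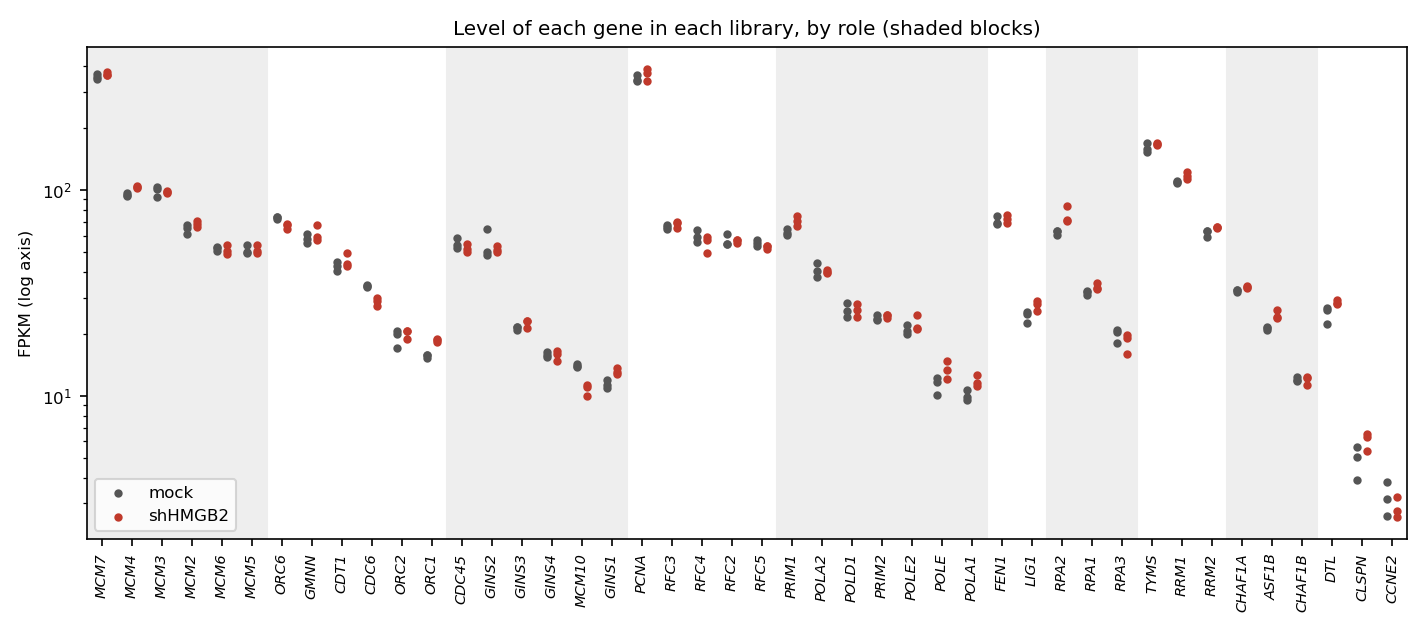
FPKM of each gene on a log axis in the 3 mock and 3 shHMGB2 libraries (points), in blocks by role and ordered by level within a block. MCM7 and PCNA lie highest, at means of 361 and 357 FPKM, and CCNE2 lowest, at 3.03 FPKM, and for most genes the points of both groups lie at the same height.

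Over all 44 genes the level ranged 119-fold. MCM7 (mean of 6 libraries, 361 FPKM) and PCNA (357 FPKM) led, and they did not differ beyond their spread. TYMS (164 FPKM) and RRM1 (114 FPKM) followed, and MCM4 (99.1 FPKM) and MCM3 (98.2 FPKM) came next, again within their spread of each other. At the lower end stood POLA1 (10.9 FPKM), CLSPN (5.48 FPKM) and CCNE2 (3.03 FPKM). The median of the 44 genes was 41.7 FPKM in mock and 42.7 FPKM in shHMGB2. The coefficient of variation within a group had a median of 4.61% in mock and 4.77% in shHMGB2.

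The sliding clamp and its loader gave no call and no gene with separate groups. PCNA, the ring that holds polymerases on DNA, had 363.9, 337.9 and 342.2 FPKM in mock and 340.2, 385.8 and 371.4 FPKM in shHMGB2. The lowest shHMGB2 library lay among the mock libraries, and the difference was 0.07 (95% interval -0.09 to 0.23, limma adjusted p = 0.523). RFC4, a subunit of the loader, had the largest difference of the group at -0.12, with 64.0, 59.3 and 55.7 FPKM in mock and 49.2, 58.9 and 57.0 FPKM in shHMGB2 (limma adjusted p = 0.403). RFC2, RFC3 and RFC5 differed by -0.01, 0.03 and -0.06. RFC3 relative to the mean of the 4 loader subunits was higher in all 3 shHMGB2 libraries, by 0.07 on the log2 scale.

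Polymerases and primase had no call and a median difference of 0.10. The difference was above 0 for 6 of 7, POLD1 among them by only 0.0004, against 57% of all genes. POLE, the catalytic subunit of the leading-strand polymerase epsilon, had the largest, 0.22, with 10.1, 12.3 and 11.7 FPKM in mock and 14.8, 13.3 and 12.1 FPKM in shHMGB2. The groups overlapped, and the 95% interval ran from -0.01 to 0.44 (limma adjusted p = 0.189). POLA1, the catalytic subunit of polymerase alpha, had 9.58, 9.90 and 10.7 FPKM in mock and 11.6, 12.6 and 11.2 FPKM in shHMGB2, and PRIM1, the primase that makes the RNA primers, had 60.5, 64.9 and 62.0 FPKM against 66.9, 70.6 and 74.4 FPKM. Both had higher values in all 3 shHMGB2 libraries and did not pass (differences 0.21 and 0.17, limma adjusted p = 0.120 and 0.121). POLA2, PRIM2, POLD1 and POLE2 differed by -0.02, 0.03, 0.00 and 0.10, with overlapping groups. PRIM2 has near-identical copies in the genome, so its reads could be split by the counting.

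Of the genes that finish Okazaki fragments, LIG1, the ligase that seals them, measured 25.6, 22.6 and 25.0 FPKM in mock and 29.02, 28.0 and 25.9 FPKM in shHMGB2. Its lowest shHMGB2 value was just above its highest mock value, and the difference of 0.17 did not pass (limma adjusted p = 0.164). FEN1, the nuclease that trims the flaps, differed by 0.03 with overlapping groups. For RPA, the trimer that coats single-stranded DNA, the subunits had different signs. RPA2 measured 63.2, 63.0 and 60.5 FPKM in mock and 70.9, 71.6 and 83.5 FPKM in shHMGB2. All 3 shHMGB2 libraries were higher, replicate 3 most of all, and the difference of 0.27 (95% interval 0.09 to 0.44) did not pass (limma adjusted p = 0.0736). RPA1 differed by 0.10 and RPA3 by -0.11, neither past the threshold.

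The enzymes of deoxynucleotide supply gave no call, and TYMS and RRM1 stood next to MCM7 and PCNA in level. RRM1, the large subunit of ribonucleotide reductase, had 108.1, 109.2 and 110.7 FPKM in mock and 113.4, 122.9 and 116.9 FPKM in shHMGB2, groups that did not overlap, with a difference of 0.11 that did not pass (limma adjusted p = 0.240). RRM2, the small subunit, differed by 0.09, also without overlap, and the ratio of RRM2 to RRM1 overlapped between the groups. TYMS, which makes thymidylate, had 169.6, 153.0 and 159.0 FPKM in mock and 167.6, 169.3 and 164.7 FPKM in shHMGB2, with a difference of 0.06 and overlapping groups. TYMS overlaps the antisense gene ENOSF1, and without a stated strand setting reads from the shared stretch cannot be assigned to either gene.

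Histone chaperones and S-phase regulators completed the set without a call. ASF1B, which hands histones H3 and H4 to the fork and whose reads the authors' counting could have split with its copy, had 21.7, 21.4 and 20.9 FPKM in mock and 26.2, 24.0 and 23.8 FPKM in shHMGB2. Its groups were apart, and the difference of 0.20 did not pass (limma adjusted p = 0.0906). CHAF1A and CHAF1B, subunits of chromatin assembly factor 1, differed by 0.06 and -0.01. DTL, the receptor that sends CDT1 to the CRL4 ubiquitin ligase in S phase, had 22.4, 26.1 and 26.7 FPKM in mock and 27.9, 29.3 and 28.2 FPKM in shHMGB2, a difference of 0.18 with separate groups (limma adjusted p = 0.176). CLSPN, the adaptor that activates CHK1 at stalled forks, had 3.90, 5.02 and 5.66 FPKM in mock and 6.52, 6.33 and 5.42 FPKM in shHMGB2. The groups overlapped, and its difference of 0.28 had the widest interval of the set, from -0.01 to 0.58. CCNE2, an S-phase cyclin, had 2.61, 3.83 and 3.14 FPKM in mock and 2.76, 3.23 and 2.59 FPKM in shHMGB2, with no separation.

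Of the 44 replication genes, 2 passed in the authors' deposited table, both as lower. The adjusted p in it was under 0.05 for 15.4% of the 13585 genes that have one, and the 2 replication genes were MCM10 and CDC6. This share is under that background, where the 3 limma calls stood near theirs, and the difference between the shares was not tested. The median log2 fold change in it was -0.01 over the replication genes and -0.02 over all genes tested here. No other replication gene passed in that table.

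Transcript length moved with the differences across the whole table. The difference of a gene increased with the log2 of its transcript length, with a Pearson r of 0.329 and a Spearman rho of 0.374 over 11155 genes matched to GENCODE 29, which share the same 6 libraries. Over the 44 replication genes r was 0.0799 and rho 0.122. The deviation of mock replicate 1 had an r of -0.533 with length over all genes and -0.336 over the replication genes. The longest GENCODE transcripts of CDC6, MCM10 and ORC1 are 4810, 4587 and 3157 bases. With the length trend removed from each library, an alternative added after the data had been seen, CDC6, MCM10 and ORC1 passed again, with differences of -0.33, -0.43 and 0.20. RPA2 and ASF1B then passed as higher (limma adjusted p = 0.0335 and 0.0494), and the difference of POLE became 0.07 and that of POLA1 0.11. Calls also rose over all genes, from 905 (6.75%) to 1338 (9.98%) of 13409. The 3 higher and 2 lower replication genes are read against that share.

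**Figure D5:**
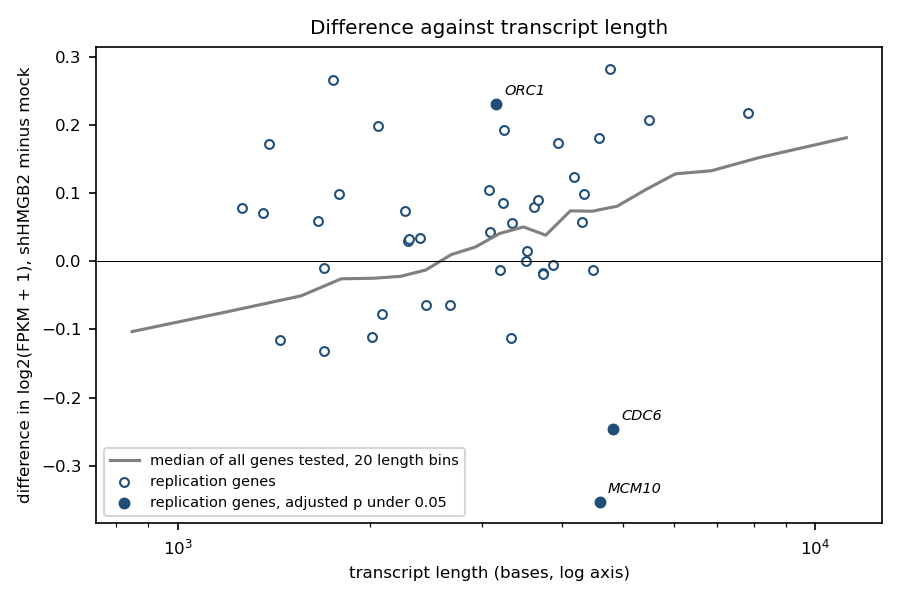
Difference in log2(FPKM + 1), shHMGB2 minus mock, against transcript length in bases on a log axis, for the 44 genes (points; filled where the adjusted p was under 0.05). The grey line joins the medians of all genes tested in 20 length bins and climbs from below 0 to above 0, CDC6 and MCM10 lie far below it and ORC1 lies above it.

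The promoters of the replication genes shared sequence words whatever the direction of their difference. RefSeq start sites on GRCh38.p14 were matched for 38 of the 44 genes, and windows of 300 bases, 250 before to 50 after each of their 47 starts, were searched on both strands. An E2F-type word (any of the 4 spelled out above) was found for 20 of the 38 genes (52.6%) and for 3.99% of 27305 genes in the table of promoters. CCAAT was found for 24 (63.2%) against 39.7%. The CHR word TTTGAA, known from promoters of mitotic genes, was found for 2 (5.26%), RRM1 and ASF1B, against 18.2%. The word TTTGGCGG, chosen after these sequences had been seen, was found for 7 (18.4%), CDC6, CDT1, MCM10, CDC45, POLA2, CHAF1A and DTL, against 0.809%. The median difference was 0.08 for the 20 genes with an E2F-type word and 0.03 for the 18 without. For TTTGGCGG the median was -0.02 for the 7 genes with it and 0.07 for the 31 without. These 7 include CDC6 and MCM10, which were already known to be lower when the word was chosen. Neither this split nor the share of 18.4% is therefore independent of that choice, and no contrast with the E2F-type words is drawn. CDC6 has an E2F-type word, as do MCM2, PCNA and POLE2, and MCM10 and ORC1 have no E2F-type word in this window.

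The rest of the replication pathway was read from lists of 85 further genes, of which 84 passed the filter on low values. FAM111B did not. Among these 84, 5 rose, 6 fell and the other 73 missed the threshold, and the median difference was 0.06. These 11 calls of 84, and the counts for the single lists, are read against 6.75% of all genes called. The G1/S cyclins and E2F factors held 5 of these 11 calls among 17 genes, 1 higher and 4 lower. CCND1, cyclin D1, which drives cells through G1 with CDK4 and CDK6, measured 50.1, 52.1 and 57.5 FPKM in mock and 19.95, 20.5 and 21.2 FPKM in shHMGB2. Its groups were far apart, and it fell to 38.6% of its mock mean (difference -1.33, limma adjusted p = 0.000266). E2F1, an activator of replication genes, had 12.2, 11.1 and 11.5 FPKM in mock and 7.66, 7.82 and 7.13 FPKM in shHMGB2, and fell by 0.56 (limma adjusted p = 0.00477). CDK6 fell by 0.65 and CCND3 by 0.33, while CCND2 rose by 0.24 (limma adjusted p = 0.0344, 0.0293 and 0.0472).

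E2F1 and CCND1 passed in all 6 fits that left out a library. CDK6 passed only without mock replicate 1, CCND3 only without mock replicate 1 or 3, and CCND2 in none of these fits. The difference of CCND2 was 0.12 with the length trend removed (limma adjusted p = 0.266). Beside the fall of E2F1, the 20 replication genes with an E2F-type promoter word had differences from -0.25 for CDC6 to 0.28 for CLSPN. Whether the fall of E2F1 bears on these differences was not tested.

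Nucleotide supply outside the 44 genes had 2 calls of 10. SAMHD1, the enzyme that breaks down deoxynucleotides, measured 32.9, 34.6 and 35.9 FPKM in mock and 59.4, 58.2 and 57.2 FPKM in shHMGB2. It rose to 169% of its mock mean (difference 0.74, limma adjusted p = 0.000807) and passed without any 1 library. DCK, a kinase that salvages deoxynucleosides, fell from 21.0 ± 1.04 to 15.6 ± 1.82 FPKM (SD, n = 3; difference -0.41, limma adjusted p = 0.0410), and this call was lost with any 1 library left out (adjusted p from 0.0533 to 0.128).

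Among 22 other fork and synthesis genes POLD3, an accessory subunit of polymerase delta, rose from 28.1 ± 2.98 to 40.2 ± 0.852 FPKM (SD, n = 3; difference 0.51, limma adjusted p = 0.0150). POLE4, a small histone-fold subunit of polymerase epsilon, fell from 20.003 ± 2.88 to 14.4 ± 0.680 FPKM (difference -0.44, limma adjusted p = 0.0435). The POLD3 call was lost without any 1 of the 3 shHMGB2 libraries (adjusted p from 0.0578 to 0.0652), and the POLE4 call without mock replicate 2 or any shHMGB2 library. Of 15 other licensing and firing genes only TICRR, which helps CDK activity to start origins, was called, and it rose by 0.35 (limma adjusted p = 0.0478). Without mock replicate 3 it still passed, and with any other library left out it did not.

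Of 8 other replication chromatin genes measured, FAM111A, a protease that clears protein obstacles from forks, was the only call and rose from 1.81 ± 0.0737 to 3.37 ± 0.162 FPKM (SD, n = 3; difference 0.64, limma adjusted p = 0.00521). The 12 checkpoint and CRL4 genes had none called. The smallest p there was that of CUL4B, a scaffold of the CRL4 ligase, with 10.9 ± 0.984 FPKM in mock and 13.6 ± 0.753 FPKM in shHMGB2 (difference 0.30, limma adjusted p = 0.0683). Among 25 mitosis genes, the most similar part of the cell cycle programme, 1 was called, NUSAP1, which rose by 0.25 (limma adjusted p = 0.0408), and the median difference was 0.12. The NUSAP1 call was lost with any 1 library left out (adjusted p from 0.0555 to 0.155).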

How the data were processed

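Total RNA from 6 libraries of KYSE450 cells was made into mRNA libraries, per the labels' protocols. The submitters' processing notes name Bowtie2 2.2.5, RSEM 1.2.12 and hg38, with no role for any. The authors deposited FPKM per library with 2 decimals, per the file headers. The authors' deposited group values act as a normalized signal, and the deposited log2 fold change is the log2 of their ratio. For the authors' deposited p-values, raw and adjusted, the test was not given in the sources used here.

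Values were fitted as log2(FPKM + 1) in limma 3.58.1 (R 4.3.3) on group alone, with a mean-variance trend in the empirical Bayes step and Benjamini-Hochberg adjustment over the 13409 genes whose mean reached 1 FPKM. The fit was tested on simulated data. Members and lists were chosen with earlier results of these data known. Values in every library were given for called members, members with an unadjusted p under 0.05, the largest difference per role, and the 3 highest and 3 lowest levels. Of the other lists, called genes were named, or the smallest p. Genes added beyond this rule were chosen after their values were seen. The replicate numbers gave no sign of pairing. Over all genes, same-numbered deviations from the group means correlated by -0.012, -0.038 and -0.096, and those of unlike number by -0.050 to 0.094. With 3 libraries per group this cannot exclude pairing. No pair of libraries had equal FPKM in more than 0.813% of tested genes. Alternatives covered the pseudocount, filter, scaling, variance model, library weights, thresholds, copies, a replicate block, each library left out and, added later, transcript length.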

Additional observations from a re-analysis of the deposited data

How the results depend on the processing

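HMGB2 passed and kept its direction under all 21 alternatives, and none of MCM10, CDC6 and ORC1 changed direction under any. MCM10 passed in 13, CDC6 in 11 and ORC1 in 8 of them. Against 905 genes called, 412 were called with no filter on low values, 4194 with library weights, 2034 at an adjusted p under 0.1, 242 under 0.01 and 372 with the replicate block, and 290 to 873 with 1 library left out (327 when mock replicate 2 was dropped, and 320, 290 and 311 when shHMGB2 replicates 1, 2 and 3 were). Median-of-ratios scaling gave 349 higher and 571 lower genes against 442 and 463, and no filter gave 167 and 245. Removing the length trend gave 1338 calls, 563 higher and 775 lower. Replication genes called higher, 1 as reported, numbered 0 with no filter, median-of-ratios scaling, no mean-variance trend, robust empirical Bayes, an adjusted p under 0.01, the replicate block or any library left out, 12 with library weights, 3 at an adjusted p under 0.1 and 3 with the length trend removed. With quantile normalization the 1 gene called higher was RPA2 (limma adjusted p = 0.0497), and ORC1 did not pass (limma adjusted p = 0.0636). Replication genes called lower, 2 as reported, numbered 0 with no filter, under 0.01 and with the replicate block. They numbered 1 with no mean-variance trend, 3 with library weights, and 0 to 1 with 1 library left out. With the replicate block the limma adjusted p was 0.068 for MCM10, 0.105 for CDC6 and 0.112 for ORC1. The median difference of the replication genes, 0.057 as reported, was 0.020 with median-of-ratios scaling and 0.034 to 0.066 with 1 library left out. With a library left out the group of 2 was assumed to vary like the other group. The cause of these shifts was not tested. Without read counts, the precision of single values cannot be given.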
